A study of Homo sapiens with 4 samples.

Results

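Sialyltransferases are the Golgi enzymes that add sialic acid to the ends of sugar chains on proteins and lipids, and gangliosides are the sialic acid-bearing lipids built on ceramide. The account covers 10 genes of these pathways among the 48162 genes of the deposited table, found by their symbols: the 6 members of the ST3GAL family (ST3GAL1 to ST3GAL6), ST6GAL1, and the enzymes UGCG, B4GALT5 and B4GALNT1. All 10 were present once in the table. The genes share a pathway and were picked with earlier results of these data known, and ST3GAL5 also stands in a list of commonly raised genes which the study drew up partly from these same libraries.

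The RNA came from MDA-MB-231 cells, an established human triple-negative breast cancer line with mesenchymal features, grown in serum-containing medium. One group of 2 libraries received vehicle control and the other group of 2 libraries received MGH-CP1, a small molecule that blocks the attachment of palmitate to TEAD transcription factors, for 24 h. The sample labels give the MGH-CP1 dose as 10 µM, whereas the methods of the study give 10 mM. The labels do not say whether the libraries of a group came from separate cultures, so p-values measure only the spread between these libraries, which may be technical.

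The values are FPKM, fragments counted on a gene divided by its length and by the total of fragments on genes in the library. Fragments per library summed to 25455533 and 25508824 with vehicle and to 17997221 and 17577930 with MGH-CP1, so the treated libraries were shallower. A gene of 1 kilobase at 1 FPKM corresponds to between 17.6 and 25.5 fragments. Mitochondrial genes took 0.418% to 0.447% of fragments with vehicle and 1.53% to 1.57% with MGH-CP1. The same number of members was called higher, 5, with totals taken without mitochondrial genes and with all libraries thinned to equal depth, both settings chosen after the data were seen. The markers expected high in this line were high in all libraries, with VIM between 259 and 281 FPKM. They were not all steady between the groups. AXL was lower with MGH-CP1 (log2 fold change -0.76, limma adjusted p = 0.000425), as was CAV1 (-0.49, limma adjusted p = 0.0001). VIM and CD44 were not called. The hormone receptor genes ESR1 and PGR had at most 4 fragments in any library. GATA3, a luminal marker expected low, stood at 4.17 to 5.66 FPKM. The TEAD target genes CYR61, CTGF and ANKRD1 were lower with MGH-CP1 in both libraries, with log2 fold changes between -0.75 and -0.66. MGH-CP1 replicate 2 stood apart in holding liver-type transcripts, with 284 fragments summed over 14 hepatocyte genes against 3, 8 and 16 in the other libraries, and the members' calls are therefore also given without it.

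Ganglioside synthesis starts when UGCG places glucose on ceramide and B4GALT5 adds galactose to make lactosylceramide. ST3GAL5 then attaches the first sialic acid to give GM3, the parent of the more complex gangliosides, and B4GALNT1 extends GM3 towards GM2 and related forms. The remaining ST3GAL enzymes place sialic acid mainly on galactose at the ends of glycoprotein chains, with ST3GAL1 and ST3GAL2 preferring O-glycan type ends and ST3GAL3, ST3GAL4 and ST3GAL6 the lactosamine ends of N-glycans and related chains. ST6GAL1 uses another hydroxyl of galactose and is the main enzyme making that linkage on N-glycans. In tumours these genes are studied because sialylated glycans are ligands of lectin receptors and gangliosides modulate receptor signalling at the membrane.

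Of the 10 genes, 8 reached a mean of 1 FPKM and were tested with limma on log2(FPKM + 1) over 12080 genes. Called higher with MGH-CP1, at a Benjamini-Hochberg adjusted p under 0.05, were 5 of the 8: ST3GAL1, ST3GAL2, ST3GAL5, UGCG and B4GALT5. None was called lower by limma, and none was lower at an unadjusted p under 0.05; limma voom on recovered fragments also called 0 lower, with 1 lower at an unadjusted p under 0.05. Over all genes tested, 27.1% were called higher and 23.8% lower, 50.8% in either direction, and the members' count is to be read against these shares. The median log2 fold change of the 8 was 0.28, against 0.01 over all genes tested. Since the RNA is from bulk cultures, a change in the share of cells expressing a gene and a change in its RNA per cell cannot be told apart.

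**Figure D1:**
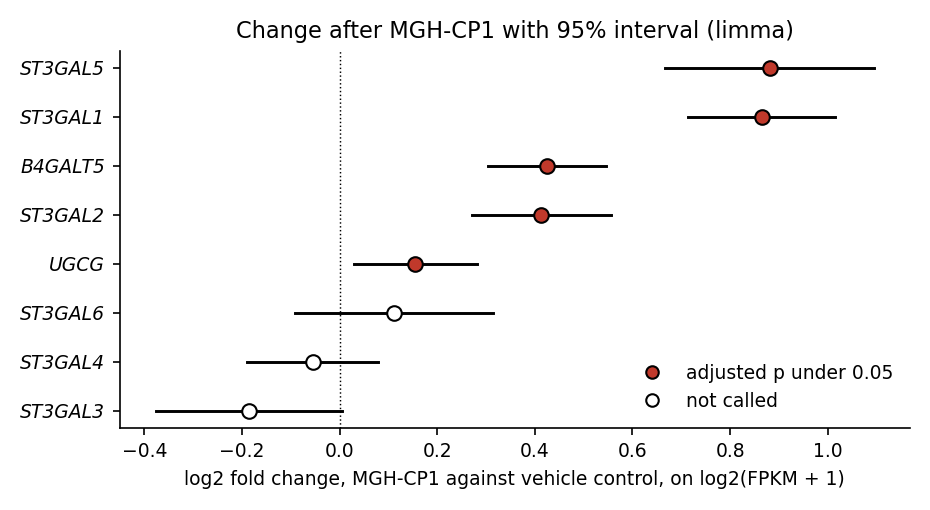
Log2 fold change on the log2(FPKM + 1) scale, MGH-CP1 minus vehicle control, of the 8 members tested, with points for the limma estimate and bars for the 95% interval. ST3GAL1 and ST3GAL5 lie furthest to the right at 0.86 and 0.88, and the intervals of ST3GAL3, ST3GAL4 and ST3GAL6 include 0.

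The largest estimated rise was that of ST3GAL5, GM3 synthase (ENSG00000115525, hg19 chr2:86066267-86116137, minus strand). Its level was 4.61 and 4.28 FPKM with vehicle and 9.82 and 8.29 FPKM with MGH-CP1, from 409, 381, 616 and 508 fragments. Both treated libraries lay well above both vehicle libraries although they were sequenced less deeply. The mean went from 4.45 ± 0.23 to 9.05 ± 1.08 FPKM (SD, n = 2), a 2.04-fold ratio, and the log2 fold change was 0.88 with a standard error of 0.09 (95% interval 0.67 to 1.09, limma adjusted p = 0.000186). Of all genes tested, 317, or 2.62%, rose more. Because the study chose ST3GAL5 for its list partly on these libraries, this rise is not independent evidence for that list.

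UGCG, glucosylceramide synthase (ENSG00000148154, hg19 chr9:114659046-114697649, plus strand), was the most abundant member in both groups. It read 78.2 and 71.8 FPKM with vehicle and 84.1 and 83.0 FPKM with MGH-CP1, on 7975, 7341, 6068 and 5847 fragments. The groups did not overlap, but the vehicle libraries differed from each other by more than the distance from the higher of them to the treated pair. The means were 75.0 ± 4.50 and 83.6 ± 0.80 FPKM (SD, n = 2). The log2 fold change was 0.16 with a standard error of 0.05 (95% interval 0.03 to 0.28, limma adjusted p = 0.0431). This call is the least secure of the 5: it was lost in 8 of 15 alternative settings, including without vehicle replicate 2 (0.10, adjusted p = 0.196 by limma), without MGH-CP1 replicate 1 (0.15, adjusted p = 0.159) and without MGH-CP1 replicate 2 (0.17, adjusted p = 0.113).

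B4GALT5, the main lactosylceramide synthase (ENSG00000158470, hg19 chr20:48249482-48330415, minus strand), stood at 42.1 and 40.5 FPKM with vehicle and at 57.3 and 54.4 FPKM with MGH-CP1, from 5067, 4873, 4867 and 4515 fragments. The treated libraries were both above the vehicle libraries, and each pair was tight. The mean rose from 41.3 ± 1.20 to 55.8 ± 2.03 FPKM (SD, n = 2), a ratio of 1.35. The log2 fold change was 0.43 with a standard error of 0.05 (95% interval 0.30 to 0.55, limma adjusted p = 0.000381), and 13.8% of the genes tested rose more.

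The promoters of these 3 rising enzymes are shown because the genes lie on one route from ceramide to GM3 and TEAD factors bind DNA. Each sequence is the 250 bases before a RefSeq transcription start on GRCh38.p14, written on the gene's own strand, and the capitals mark matches to the TEAD core GGAATG or its reverse CATTCC and to the GC box GGGCGG or its reverse CCGCCC. They lie at chr2:85888991-85889240 (minus strand) for ST3GAL5, chr9:111896564-111896813 (plus strand) for UGCG and chr20:49713879-49714128 (minus strand) for B4GALT5. ST3GAL5 has 5 windows in the table, of which the first listed is printed, the one with the most GC boxes.
ST3GAL5: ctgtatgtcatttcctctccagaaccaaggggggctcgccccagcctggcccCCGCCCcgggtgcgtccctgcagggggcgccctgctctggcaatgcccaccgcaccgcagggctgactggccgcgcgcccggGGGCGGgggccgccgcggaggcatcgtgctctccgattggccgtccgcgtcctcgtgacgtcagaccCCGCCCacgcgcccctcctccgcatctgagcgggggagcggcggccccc
UGCG: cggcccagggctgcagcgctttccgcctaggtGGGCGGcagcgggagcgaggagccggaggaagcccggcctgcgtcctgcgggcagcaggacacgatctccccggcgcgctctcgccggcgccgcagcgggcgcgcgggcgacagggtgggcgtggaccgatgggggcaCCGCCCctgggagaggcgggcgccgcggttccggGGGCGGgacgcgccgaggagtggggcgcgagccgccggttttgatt
B4GALT5: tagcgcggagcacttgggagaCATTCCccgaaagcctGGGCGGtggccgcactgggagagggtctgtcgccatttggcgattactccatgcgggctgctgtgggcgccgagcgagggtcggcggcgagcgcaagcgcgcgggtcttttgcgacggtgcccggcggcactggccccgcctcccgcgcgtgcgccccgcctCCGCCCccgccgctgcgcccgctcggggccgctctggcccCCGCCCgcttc
B4GALT5 held 1 match to the TEAD core and the printed windows of ST3GAL5 and UGCG held 0. Each of the 3 printed windows held 3 GC boxes, and between 75.6% and 78.4% of their bases were G or C. The other 4 windows of ST3GAL5 held 2, 1, 0 and 0 GC boxes at 66.0%, 80.0%, 52.8% and 52.0% G or C, and none of them held the TEAD core. Over the 7 members with a promoter entry, 2 of 16 windows held the TEAD core, 1 of B4GALT5 and 1 of ST3GAL4, against 11.9% of 35116 windows of the same length over all genes. The GC box was in 11 of the 16 windows, against 42.6% of all windows. Windows of a gene can overlap, so the 16 are not separate sequences. Those of ST3GAL5 at chr2:85888991-85889240 and chr2:85889035-85889284 share most of their bases, and GC boxes in the shared stretch count in both. The E-box CACGTG was in 1 of the 16, of ST3GAL4, against 6.34% of all, and the AP-1 motif TGACTCA or its reverse TGAGTCA was in 0, against 4.20%. The members outside these 7 were ST3GAL1, ST3GAL2 and B4GALNT1. A match describes letters only, and the GC box is itself made of G and C.

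B4GALNT1, which extends GM3 and lactosylceramide (ENSG00000135454, hg19 chr12:58017193-58027138, minus strand), was near the floor of the data. Its values were 0.58 and 0.63 FPKM with vehicle and 0.65 and 0.46 FPKM with MGH-CP1, from 83, 89, 65 and 45 fragments. The groups overlapped, and its mean of under 1 FPKM kept it out of the test. With no filter on low values, its log2 fold change was -0.05 (limma adjusted p = 0.756).

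ST3GAL1, the sialyltransferase of core O-glycans (ENSG00000008513, hg19 chr8:134467091-134584183, minus strand), rose nearly as much as ST3GAL5. It read 13.0 and 13.4 FPKM with vehicle and 26.1 and 23.7 FPKM with MGH-CP1, on 2309, 2389, 3278 and 2906 fragments. Every treated library was far above every vehicle library, also in raw fragments. The mean went from 13.2 ± 0.30 to 24.9 ± 1.71 FPKM (SD, n = 2), with a log2 fold change of 0.86, a standard error of 0.07 and a 95% interval of 0.71 to 1.01 (limma adjusted p = 4.63e-05). Of the genes tested, 2.79% rose more.

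ST3GAL2, which uses the same kind of acceptor end and also glycolipids (ENSG00000157350, hg19 chr16:70413338-70473140, minus strand), started at the level of ST3GAL1 and rose less. It had 13.0 and 13.6 FPKM with vehicle and 18.5 and 17.6 FPKM with MGH-CP1, from 1767, 1856, 1783 and 1650 fragments. The groups did not overlap. The means were 13.3 ± 0.44 and 18.1 ± 0.69 FPKM (SD, n = 2), and the log2 fold change was 0.41 with a standard error of 0.06 (95% interval 0.27 to 0.56, limma adjusted p = 0.000952). The vehicle libraries of the 2 genes overlapped in level, whereas with MGH-CP1 both libraries of ST3GAL1 exceeded both of ST3GAL2.

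ST3GAL4, an enzyme of lactosamine chains (ENSG00000110080, hg19 chr11:126225535-126310239, plus strand), was the most abundant of the ST3GAL family and gave no detectable difference. It read 37.2 and 34.1 FPKM with vehicle and 34.0 and 34.5 FPKM with MGH-CP1, and the groups overlapped. The log2 fold change was -0.06 with a 95% interval of -0.19 to 0.08 (limma adjusted p = 0.452). The interval leaves out rises of the size measured for ST3GAL1 and ST3GAL5.

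ST3GAL3, which also sialylates lactosamine-type ends (ENSG00000126091, hg19 chr1:44171495-44396831, plus strand), leaned the other way. It had 11.7 and 11.1 FPKM with vehicle and 9.17 and 10.8 FPKM with MGH-CP1, on 731, 696, 404 and 463 fragments. Both treated libraries were below both vehicle libraries, by a margin smaller than the gap between the treated ones. The log2 fold change was -0.19 with a standard error of 0.08 and a 95% interval of -0.38 to 0.01 (limma adjusted p = 0.0960). It was called lower without MGH-CP1 replicate 2 (-0.29, limma adjusted p = 0.0313) and with median-ratio scaling (-0.24, limma adjusted p = 0.0461).

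ST3GAL6, another enzyme of lactosamine ends (ENSG00000064225, hg19 chr3:98451080-98540045, plus strand), read 4.55 and 4.43 FPKM with vehicle and 5.26 and 4.63 FPKM with MGH-CP1. The groups did not overlap, but the nearest libraries of the groups differed by less than the treated pair did. The log2 fold change was 0.11 with a 95% interval of -0.09 to 0.31 (limma adjusted p = 0.321). This gene shares 25261 bases on the opposite strand with DCBLD2, which held 14387, 14322, 8736 and 9076 fragments against 365, 356, 298 and 256 for ST3GAL6. Whether counting used strand is not given in the sources used here, so the value of ST3GAL6 is uncertain. ST3GAL2, ST3GAL3, ST3GAL4 and B4GALNT1 also overlap genes on the opposite strand, which held at most 18 fragments in any library. The same limit applies to their levels and shares. Of the pathway genes described below, MGAT2 was listed at 0 in all libraries. It shares 2666 bases with an opposite-strand gene, also at 0. How the counting treated such fragments was not tested.

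ST6GAL1, of the other sialic acid linkage (ENSG00000073849, hg19 chr3:186648274-186796341, plus strand), was barely present, at 0.31 and 0.42 FPKM with vehicle and 0.48 and 0.55 FPKM with MGH-CP1. These values rest on 38, 53, 42 and 47 fragments, and the treated libraries lay above the vehicle libraries only after scaling by depth. It was not tested. With no filter on low values its log2 fold change was 0.15 (limma adjusted p = 0.308).

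Over the 8 members tested, the groups did not overlap in 7, a share close to that of all genes tested, of which 77.2% did not overlap. The treated libraries lay above in 6 and below in 1, against 39.8% above and 37.4% below over all genes. Requiring also a log2 fold change of at least 0.5 left ST3GAL1 and ST3GAL5, against 10.4% of all genes called higher and 6.16% called lower under that rule. The rises of ST3GAL1, ST3GAL2, ST3GAL5 and B4GALT5 were called in 14 of 15 alternative settings, MGH-CP1 replicate 2 left out among them. They lost the call when no variance was shared between genes, where the limma adjusted p-values were between 0.064 and 0.079. The share of all genes called in that setting is not given here.

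**Figure D2:**
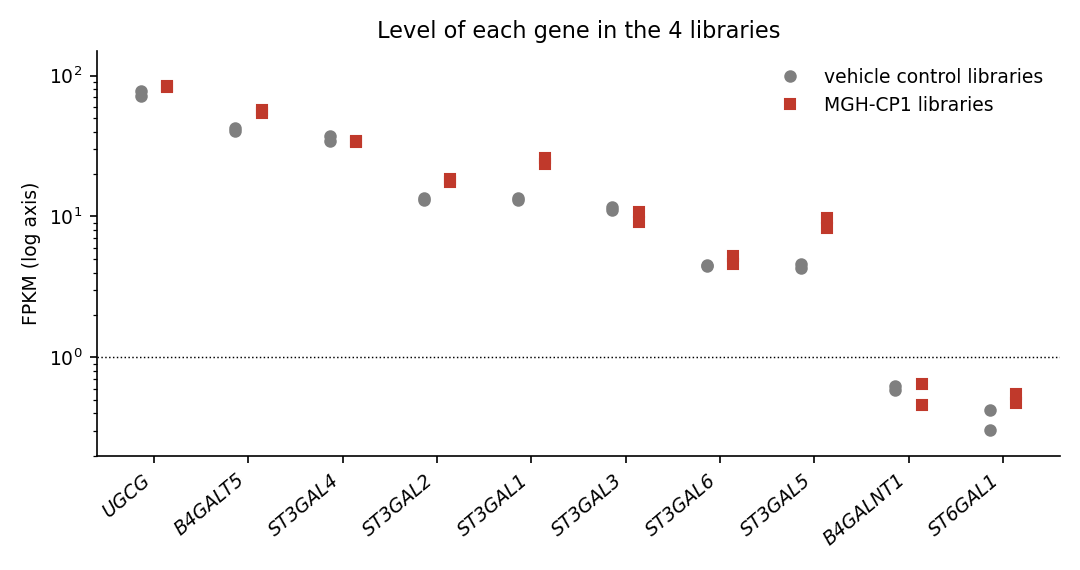
FPKM on a log axis of each member in each of the 4 libraries, vehicle control and MGH-CP1, with a dotted line at 1 FPKM. UGCG and B4GALT5 lie at the top, ST6GAL1 and B4GALNT1 lie below the line, and ST3GAL1 and ST3GAL5 show the widest gap between the groups.

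In vehicle libraries the order of level per gene length was UGCG, B4GALT5, ST3GAL4, then ST3GAL2 and ST3GAL1, whose libraries overlapped, then ST3GAL3, ST3GAL6 and ST3GAL5, of which the last pair overlapped, and last B4GALNT1 and ST6GAL1. With MGH-CP1 the first 3 places were kept, ST3GAL1 stood above ST3GAL2, ST3GAL3 and ST3GAL5 overlapped, ST3GAL6 came next, and B4GALNT1 and ST6GAL1 overlapped. The change in order was the move of ST3GAL5 from the level of ST3GAL6 to that of ST3GAL3, and of ST3GAL1 clear of ST3GAL2.

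The summed level of the 6 ST3GAL genes was 84.1 and 81.0 FPKM with vehicle and 102.9 and 99.4 FPKM with MGH-CP1, means of 82.5 ± 2.20 and 101.2 ± 2.47 (SD, n = 2), 1.23-fold. The exact two-sided permutation test gave p = 0.333, the smallest that 2 libraries against 2 allow, as for each sum and ratio that follows. ST3GAL4 made up 44.2% and 42.1% of the sum with vehicle and 33.0% and 34.7% with MGH-CP1. ST3GAL1 made up 15.5% and 16.6% with vehicle and 25.4% and 23.9% with MGH-CP1. The share of ST3GAL4 was smaller in both treated libraries while its own level did not detectably differ. Counted as fragments, without regard to length, ST3GAL1 held the largest share in every library, 31.0% and 32.3% with vehicle and 43.2% and 41.7% with MGH-CP1, and ST3GAL4 held 25.0% and 23.1% with vehicle and 15.9% and 17.1% with MGH-CP1. The order of the shares thus depends on the scaling by length, while the direction for these 2 genes was the same on both scales. ST3GAL5 went from 5.48% and 5.29% to 9.54% and 8.34%, and ST3GAL3 from 13.9% and 13.8% to 8.91% and 10.8%.

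**Figure D3:**
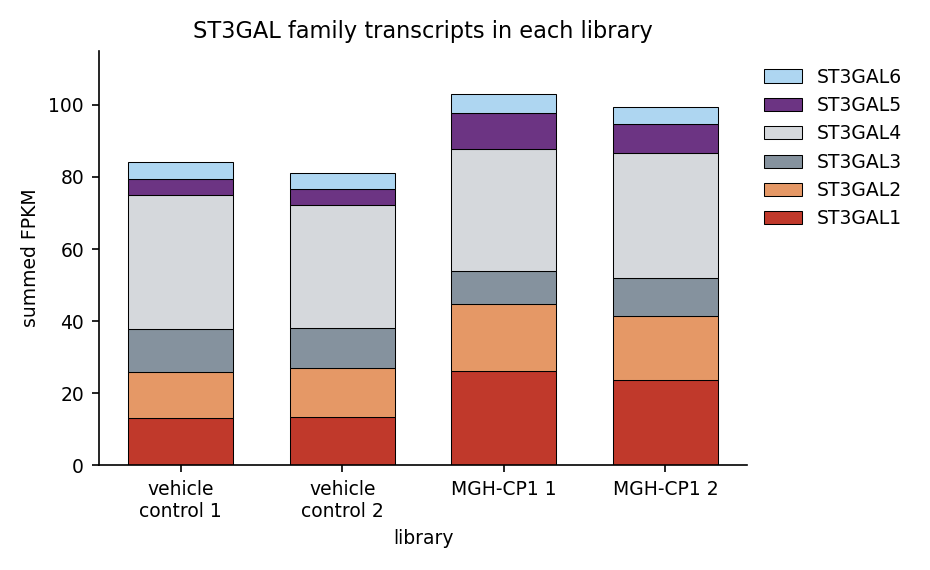
Stacked FPKM of the 6 ST3GAL genes in each library. The total is 84.1 and 81.0 with vehicle and 102.9 and 99.4 with MGH-CP1, and the ST3GAL1 and ST3GAL5 segments are thicker in both treated libraries while the ST3GAL4 segment is of similar height.

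Ratios within a library do not depend on how the libraries are scaled to each other. ST3GAL5 to UGCG, the GM3 step relative to the first step, was 0.0589 and 0.0596 with vehicle and 0.117 and 0.0998 with MGH-CP1, 1.83-fold higher. The following ratios were chosen after the values were seen and are descriptions. ST3GAL1 to ST3GAL4 was 0.350 and 0.395 with vehicle and 0.769 and 0.689 with MGH-CP1. B4GALT5 to B4GALT6, the other lactosylceramide synthase, was 8.80 and 8.22 with vehicle and 14.4 and 15.4 with MGH-CP1. ST3GAL5 to NEU3, the sialidase of the plasma membrane that removes sialic acid from gangliosides, was 1.63 and 1.39 with vehicle and 7.49 and 5.18 with MGH-CP1. In each of these ratios both treated libraries stood above both vehicle libraries. For the ratios chosen after the values were seen, that separation follows from the choice of genes. It adds no support to the results of the single genes. NEU1, the other sialidase tested, was itself higher with MGH-CP1 (log2 fold change 0.47), and ST3GAL5 was not set against it.

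**Figure D4:**
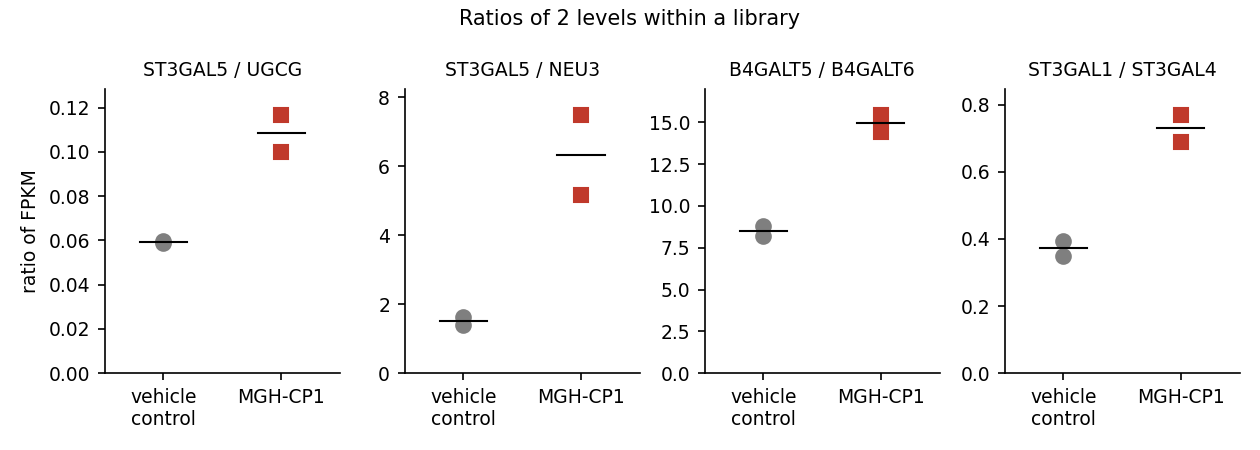
Ratios of FPKM within each library, with a line at the group mean, for ST3GAL5 to UGCG, ST3GAL5 to NEU3, B4GALT5 to B4GALT6 and ST3GAL1 to ST3GAL4. Each panel has its own axis. The ratios other than ST3GAL5 to UGCG were chosen after the values were seen. The treated libraries lie above the vehicle libraries in all 4 panels, and the fold difference between the group means is largest for ST3GAL5 to NEU3.

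The other genes of the pathway were listed by role, 80 genes in 8 lists. Of these, 56 were tested, 17 were called higher and 10 lower, with a median log2 fold change of 0.04 beside 0.28 for the members. Whether the lists and the members differ was not tested, and the lists are described by their counts beside 27.1% higher and 23.8% lower over all genes.

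Among 13 other sialyltransferases only 3 were tested, and all 3 were called higher. They were ST6GALNAC2, ST6GALNAC4 and ST6GALNAC6, which put sialic acid on the inner sugar of O-glycans or gangliosides. ST6GALNAC6 read 21.7 and 22.1 FPKM with vehicle and 32.3 and 32.3 FPKM with MGH-CP1 (log2 fold change 0.54, standard error 0.05, limma adjusted p = 0.000119). ST6GALNAC2 read 1.04 and 0.93 FPKM with vehicle and 1.87 and 1.88 FPKM with MGH-CP1 (0.53, standard error 0.12, limma adjusted p = 0.00575). ST6GALNAC4 rose by 0.42 on the log2 scale (limma adjusted p = 0.00111). ST8SIA1, which makes GD3 from GM3, was at 0.73 to 0.95 FPKM in all libraries and was not tested, and ST6GAL2, ST8SIA2 and ST8SIA3 were listed at 0.

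The supply of activated sialic acid showed no common direction, with 1 of 5 genes called higher, 1 lower and 3 not called. CMAS, which makes CMP-sialic acid, rose by 0.24 on the log2 scale (limma adjusted p = 0.00855), a call lost without MGH-CP1 replicate 1 (0.21, limma adjusted p = 0.0606). NANP, the phosphatase one step before, had a log2 fold change of -0.30 (limma adjusted p = 0.0161), a call kept in 2 of the 4 fits that leave out 1 library. GNE, the entry enzyme, was at 0.12 (limma adjusted p = 0.119) and NANS at -0.08 (limma adjusted p = 0.303), neither called.

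The 2 sialidases tested went opposite ways. NEU3 had 2.82 and 3.09 FPKM with vehicle and 1.31 and 1.60 FPKM with MGH-CP1, from 253, 277, 83 and 99 fragments. Its treated libraries both lay far below the vehicle ones, with a log2 fold change of -0.69 and a standard error of 0.11 (limma adjusted p = 0.00145). NEU1, the lysosomal sialidase, read 16.5 and 17.1 FPKM with vehicle and 24.3 and 23.1 FPKM with MGH-CP1 (0.47, standard error 0.06, limma adjusted p = 0.000393). The calls of both held whichever library was left out.

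Among other glycosphingolipid enzymes, 2 of 7 tested were called higher and 2 lower. B3GALT4, which extends GM2 to GM1, rose by 0.66 on the log2 scale (limma adjusted p = 0.00334) on only 36 to 69 fragments. A4GALT, which diverts lactosylceramide to globosides, rose by 0.44 (limma adjusted p = 0.00171). B4GALT6 had 4.79 and 4.92 FPKM with vehicle and 3.97 and 3.52 FPKM with MGH-CP1, below in both treated libraries (-0.31, limma adjusted p = 0.0203). B3GALNT1, the globoside synthase, was at -0.28 (limma adjusted p = 0.0155). Each of these lower calls was kept in 1 of the 4 fits that leave out 1 library.

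Breakdown of gangliosides and other glycosphingolipids was the list with the most genes called higher, 7 of 12 tested higher, with a median log2 fold change of 0.33. ARSA, which removes sulphate from sulphatide, read 3.41 and 3.23 FPKM with vehicle and 9.18 and 8.90 FPKM with MGH-CP1 (1.22, standard error 0.08, limma adjusted p = 2.66e-05). PSAP, the precursor of the saposins that present lipids to these hydrolases, read 320 and 327 FPKM with vehicle and 490 and 466 FPKM with MGH-CP1 (0.56, limma adjusted p = 7.81e-05). CTSA, which protects the sialidase NEU1, rose by 0.45 (limma adjusted p = 0.000226) and GBA2, a glucosylceramidase outside the lysosome, by 0.42 (limma adjusted p = 0.000655). PSAP and SMPD1, like ST3GAL5, are in the study's list of commonly raised genes chosen partly on these libraries, so their direction is not independent evidence.

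Among enzymes that build the acceptor chains for sialic acid, 1 of 11 tested was called higher, 1 lower and 9 were not called. B4GALT1, which adds galactose to glycoprotein chains, read 58.9 and 58.3 FPKM with vehicle and 78.9 and 76.2 FPKM with MGH-CP1 (0.40, limma adjusted p = 0.000324). MGAT5, which adds a branch to N-glycans, was at -0.19 (limma adjusted p = 0.0428), a call lost whichever library was left out. C1GALT1C1, the chaperone of the core O-glycan galactosyltransferase, was at 0.17 (limma adjusted p = 0.0671) and GALNT2, which starts O-glycans, at 0.15 (limma adjusted p = 0.0507), neither called. The log2 fold changes of the 9 not called ranged from -0.10 for GCNT1 to 0.17 for C1GALT1C1.

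**Figure D5:**
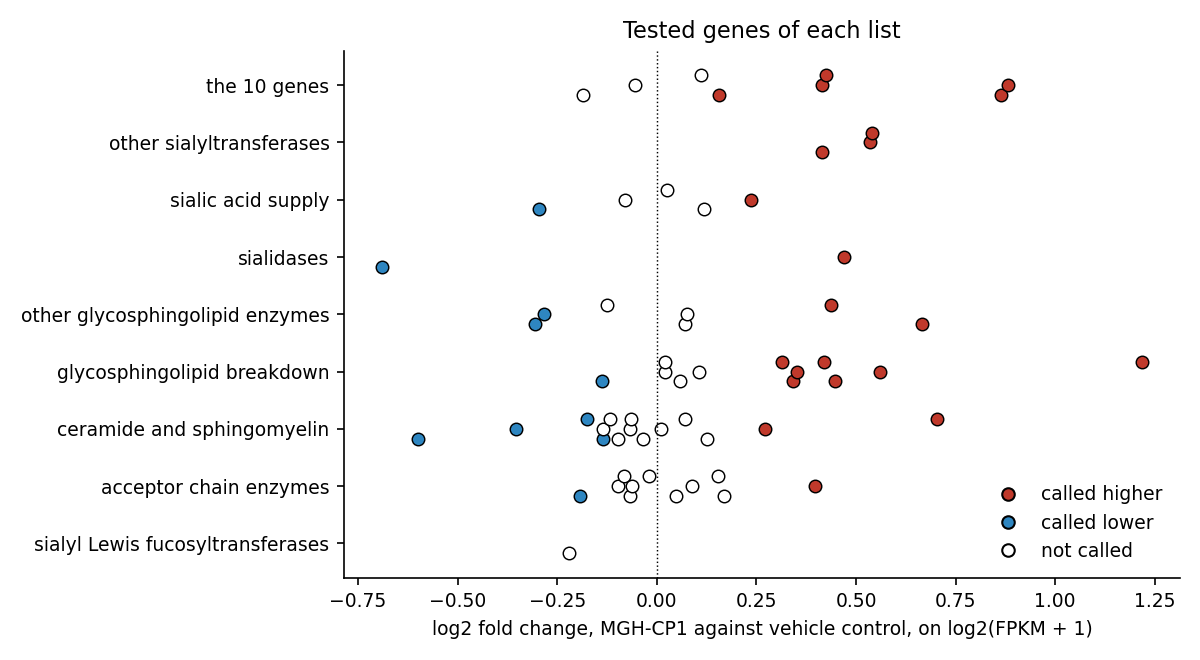
Log2 fold change on the log2(FPKM + 1) scale, MGH-CP1 minus vehicle control, of each tested gene of the members and of the 8 pathway lists, coloured red where called higher, blue where called lower and white where not called. The breakdown list and the members sit mostly to the right of 0, with 7 of 12 and 5 of 8 called higher. The 3 tested genes among the other sialyltransferases all lie to the right and were called higher. Over all genes tested, 27.1% were called higher and 23.8% lower.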

How the data were processed

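Poly(A)-selected RNA of 4 MDA-MB-231 libraries was sequenced, 2 with vehicle control and 2 with MGH-CP1. The submitters' processing notes name CASAVA 1.8, STAR and the hg19 build. The authors deposited FPKM values of 48162 genes with coordinates and lengths, and the counting tool is not given in the sources used here. FPKM times length was a whole multiple of 1 fragment in each library for all values within 0.01 fragment, so the fragment numbers given are recovered ones. Groups came from the sample labels, and columns were matched to them by condition and replicate.

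Genes with a mean of at least 1 FPKM (12080) were tested on log2(FPKM + 1) with limma 3.58.1 in R 4.3.3 (trend, two-sided, 5.97 prior degrees of freedom), with Benjamini-Hochberg adjustment over all of them and no replicate block. Fold changes are on that scale, which understates the change of low genes. The procedure was also run on simulated data with a far smaller share of changed genes than was called here. That run does not show how the calls behave where so many genes differ. Sums and ratios had exact permutation tests. The members and pathway lists were chosen with earlier results of these data known. Every member is named and, of each list, the 4 tested genes with the largest absolute log2 fold change. SMPD1, ST8SIA1, GCNT1 and the genes listed at 0 were named after their values were seen. A result of the breakdown list is not reported here. Alternatives varied the pseudocount, filter, scaling, variance model and libraries. The labels do not say whether replicate numbers pair the libraries. The deviations of replicate 1 from its group mean correlated at 0.08 between the groups over 12080 genes. With 2 libraries a group this cannot decide whether they were paired. Promoter sequences are from RefSeq.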

Additional observations from a re-analysis of the deposited data

How the results depend on the processing

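Each setting changed a single choice, except limma voom on recovered fragments, which changed the values, the log scale and the variance model together. The shares over all genes given above, 27.1% higher and 23.8% lower, belong to the limma fit without these changes. Under the fold rule they were 10.4% and 6.16%. The counts under the other settings have no such share beside them, so whether a shift was particular to these genes was not tested. Of the members, 5 were called higher and 0 lower. Sharing no variance between genes left 0 higher and 0 lower by limma's per-gene fit, although 4 were higher at an unadjusted p under 0.05, and limma voom called 5 higher. Requiring a log2 fold change of at least 0.5 left 2 higher, and median-ratio scaling called 1 lower, ST3GAL3. Leaving out each library in turn gave 4 to 5 higher and 0 to 1 lower. ST3GAL4 turned from -0.06 to 0.0063 without vehicle control replicate 1, was at -0.12 without vehicle control replicate 2, and was called in none of these. Of the pathway lists, 17 were called higher and 10 lower. Sharing no variance gave 0 and 0, with 16 higher and 8 lower at an unadjusted p under 0.05. The fold rule gave 6 higher and 2 lower, and no filter on low values gave 2 lower. Leaving out each library gave 15 to 18 higher and 3 to 7 lower, with 3 lower without vehicle control replicate 1, 4 without MGH-CP1 replicate 1 and 4 without MGH-CP1 replicate 2. With the replicate number as a block, 5 members were higher and 0 lower, and 19 list genes were higher and 10 lower. The cause of these shifts was not tested. The log2 ratio of the ST3GAL family total was 0.29, 0.24 with median-ratio scaling and 0.49 as shares of all fragments, without regard to length. With 2 libraries a group, and with under 100 fragments for ST6GAL1 and B4GALNT1, small changes were not detectable at this depth.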

Other observations

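Ceramide supply had no common direction, with 2 of 15 tested genes called higher, 4 lower and 9 not called. CERS4, a ceramide synthase, read 4.89 and 4.36 FPKM with vehicle and 8.61 and 7.72 FPKM with MGH-CP1 (log2 fold change 0.70, limma adjusted p = 0.000389). CERS6, a ceramide synthase of shorter acyl chains, read 3.85 and 3.17 FPKM with vehicle and 1.86 and 2.08 FPKM with MGH-CP1 (-0.60, limma adjusted p = 0.00286). Both calls held whichever library was left out. SPTLC3, a subunit of serine palmitoyltransferase, was lower at -0.35 (limma adjusted p = 0.00428), and COL4A3BP, which carries ceramide to the Golgi for sphingomyelin synthesis, was higher at 0.27 (limma adjusted p = 0.0207), a call kept in 2 of the 4 fits that leave out 1 library.

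Of 5 fucosyltransferases that complete sialyl Lewis ends, only FUT4 was tested, at 1.57 and 1.61 FPKM with vehicle and 1.15 and 1.31 FPKM with MGH-CP1 (-0.22, limma adjusted p = 0.15, not called). FUT3, FUT5, FUT6 and FUT7 had at most 1 fragment in any library.

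ALB, a hepatocyte gene, had 0 and 0 fragments with vehicle and 3 and 102 with MGH-CP1. Of the 14 hepatocyte genes, chosen after ALB was seen, 13 had fragments in MGH-CP1 replicate 2, where they summed to 6.92 FPKM, against 0.0961, 0.187 and 0.490 FPKM in the other libraries. ST3GAL1, ST3GAL2, ST3GAL5 and B4GALT5 remained called higher without that library.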
